A study of Homo sapiens with 26 samples.

Results

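Lysine demethylases remove methyl groups from lysines of histone tails. The 10 genes described here were KDM1A, KDM1B, KDM2A, KDM2B, KDM3A, KDM4A, KDM4B, KDM4C, KDM5B and KDM6B, out of 26485 gene symbols measured. They were taken by symbol, and the family was chosen by the siBRDT values of KDM1B, which had been seen to fall in both cell lines tested. For this reason the siBRDT values are given as a description, without a test. RNA-seq covered 26 libraries of 3 human cell lines of esophageal squamous cell carcinoma (ESCC) in 5 experiments, and each experiment has its own table of normalised read counts. BRDT is a bromodomain protein normally found in the testis, and TP63 encodes p63, a transcription factor of squamous epithelium.

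In KYSE180, 3 libraries with a control siRNA (siCont) were compared with 3 with an siRNA against BRDT (siBRDT), and in a separate experiment 2 siCont libraries were compared with 2 with an siRNA against TP63 (siTP63). In TE6, 2 siCont, 2 siBRDT and 2 siTP63 libraries were normalised together, and both TE6 comparisons use the same controls. In KYSE150, 2 siCont were compared with 2 siTP63 libraries, and 3 control libraries (cont) with 3 libraries of BRDT overexpression (BRDT-OE), which per the labels was achieved with a plasmid. The siRNA samples were taken 48 hours after transfection. Each line is a single established tumour line, and nothing in the sources says that replicates came from separate cultures, so the p-values measure the spread between these samples, which may be technical. Lower RNA per cell and fewer cells expressing a gene cannot be told apart in bulk libraries.

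As background, the family has 2 enzyme classes. KDM1A (LSD1) and KDM1B (LSD2) are flavin-dependent amine oxidases that act on methylated H3K4. KDM1A works within the CoREST repressor complex, whereas KDM1B binds transcribed gene bodies with its cofactor GLYR1 and is known for its role in maternal imprinting in oocytes. The other members carry a Jumonji C domain that uses iron and alpha-ketoglutarate. KDM2A and KDM2B bind unmethylated CpG islands and act on H3K36, and KDM2B also brings a Polycomb complex to these islands. KDM3A acts on H3K9 and is a known hypoxia target, KDM4A, KDM4B and KDM4C act on H3K9 and H3K36, KDM5B acts on H3K4 and KDM6B acts on H3K27.

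The targeted genes were checked first. BRDT fell from 1017 to 1136 normalised counts in KYSE180 siCont to 132 to 198 under siBRDT, and in TE6 from 241 to 242 to 46.6 to 55.0. TP63 fell from 2573 to 3035 to 794 to 925 in KYSE180 siTP63 and from 2596 to 2785 to 112 to 133 in TE6. In KYSE150 TP63 held 695 and 729 in siCont and 114 and 170 under siTP63, where limma called no gene. TP63 was also lower under siBRDT, at 5924 to 7223 against 9400 to 10366 in KYSE180 and 1147 to 1282 against 2596 to 2785 in TE6. BRDT rose from 6.58 to 16.0 in KYSE150 cont to 15871 to 17542 in BRDT-OE, and 1 KYSE150 siCont library held 60.9 against 8.25 in the other. Library totals ranged from 7582089 to 19372441 reads. In TE6 siBRDT replicate 1, 20995 genes had at least 1 read, against 16458 to 17569 in the other TE6 libraries, and KYSE180 siBRDT replicate 1 had 18972. Of the cell type markers, the 8 squamous genes summed to between 822 and 9479 RPM (reads of a gene scaled to the library total) in every library. The 4 leukocyte genes did not exceed 2.27 RPM and the 3 endothelial genes 12.1 RPM, and the 6 fibroblast genes reached 120 RPM in KYSE180 siBRDT, where their range of 104 to 120 overlapped the 94.6 to 108 of its controls. Under siBRDT the squamous sum was lower, at 5549 to 5746 against 8913 to 9479 RPM in KYSE180 and 2792 to 3064 against 6056 to 6070 in TE6. Of the 8 genes, 6 were called down and 0 up in KYSE180, beside 15.8% and 14.5% of all genes. In TE6, 5 were called down and 1 up, beside 18.1% and 15.6%. Under siTP63 the squamous sum was lower in each line, at 5277 to 5323 against 8050 to 8336 RPM in KYSE180, 1315 to 1399 against 6056 to 6070 in TE6 and 822 to 865 against 1923 to 2251 in KYSE150. In KYSE180 siTP63 the fibroblast sum was 68.7 to 80.01 against 36.1 to 39.7, and the endothelial sum 11.3 to 12.1 against 1.36 to 2.09. The endothelial sum under siTP63 was 7.85 to 9.76 against 4.21 to 5.83 in TE6 and 5.44 to 11.4 against 0.80 to 1.73 in KYSE150. In BRDT-OE the fibroblast sum was 4.51 to 5.47 against 9.38 to 10.4. The part of these markers in the results was not tested.

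The study lists 4 siRNAs against BRDT, 2 against TP63 and 1 non-targeting siRNA, and which of them entered the RNA-seq samples is not given in the sources used here. The sense strands of 3 are shown 5′ to 3′ because the bases opposite the guide's seed (guide bases 2 to 8, in capitals) occur in transcripts of KDM1B or KDM3A.
BRDT #2: caaaucaacuuCAGUAUCu
BRDT #3: gaaaauggauaACCAAGAa
TP63 #8: cgacagucuugUACAAUUu
The seed matches of all 7 siRNAs were searched in the longest coding transcript of each of 18944 genes (GENCODE, hg38). The KDM1B transcript, of 4538 bases, held the seed match of BRDT #2 at 2 places and that of BRDT #3 at 1 place, and none of the other 5 siRNAs had a match. The BRDT #2 match was present at least once in 16.2% of all genes and at 2 or more places in 2.57%, and the BRDT #3 match at least once in 31.8%. The longest run that BRDT #2 shared with KDM1B was 11 bases. In the BRDT transcript searched, BRDT #2 had 0 seed matches and a longest run of 9 bases, whereas the other 3 BRDT siRNAs matched over 19 bases. KDM5B held a match of every BRDT siRNA, in a transcript of 9485 bases. KDM3A held 2 matches of TP63 #8, which was present at least once in 17.6% of all genes and at 2 or more places in 3.96%. KDM3A and KDM6B each held 1 match of BRDT #3, KDM4C 1 of BRDT #4, and KDM5B also 1 of TP63 #8. KDM2B held 1 match of BRDT #3 and 2 of BRDT #18, and KDM4B 1 of each of these. These matches are a description of the letters and say nothing about the action of an siRNA.

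KDM1B (chr6:18155329-18223854, plus strand, hg38) changed more than any other member under siBRDT, in both lines. In KYSE180 the siCont libraries held 777, 755 and 809 normalised counts, and the siBRDT libraries 174, 148 and 172. All 3 siBRDT libraries were below all 3 controls, at 21.1% of the control mean (log2 fold change −2.24, SE 0.087). In TE6 the siCont libraries held 138 and 205, and the siBRDT libraries 50.7 and 33.4, which again did not overlap (24.5% of control, −2.0, SE 0.25). By size of change KDM1B ranked 58 of 13589 genes tested in KYSE180 and 95 of 13333 in TE6. These were the values by which the family was chosen. The TE6 fall rests on 28 and 47 reads in the siBRDT libraries. Without TE6 siBRDT replicate 1, the library with many detected genes, it was −2.296, and without replicate 2 it was −1.71. Without each KYSE180 library in turn the change was −2.28 to −2.17.

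Among the other H3K4 demethylases, KDM1A (chr1:23019443-23083689, plus strand) held 4132, 4058 and 4038 counts in KYSE180 siCont and 2957, 2869 and 2935 under siBRDT. The groups did not overlap, and the change of −0.48 (SE 0.056) lay just under the limit of 0.5 set for a call. In TE6, KDM1A held 2783 and 2721 in siCont and 2117 and 2721 in siBRDT, so the groups overlapped. KDM5B (chr1:202724495-202808487, minus strand), which removes methyl groups from H3K4, changed by −0.52 in KYSE180 and −0.40 in TE6. Its KYSE180 call was lost without siCont replicate 3 (−0.47) or siBRDT replicate 1 (−0.48), with a trend on transcript length and GC content removed (−0.42) and with scaling by total reads (−0.43).

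Among the members that act on H3K9, H3K36 or H3K27, KDM4B was lower in both lines, at 417 to 442 against 561 to 675 in KYSE180 (−0.53) and 292 to 296 against 397 to 428 in TE6 (−0.49). The KYSE180 change was under the limit without siCont replicate 3 (−0.47) and with scaling by total reads (−0.45). KDM3A went in TE6 from 862 in both controls to 468 and 686 (−0.60), and changed by −0.17 in KYSE180. The TE6 call of KDM3A was lost without siCont replicate 1 or 2 (adjusted p no longer under 0.05) and without siBRDT replicate 1 (−0.33), and with the trend on transcript length and GC content removed it stood at −0.21. KDM2B differed in sign between the lines, except with upper-quartile rescaling or the trend removed, with 751.4 to 837 against 545 to 612 counts in KYSE180 (0.42) and 268 to 282 against 283 to 294 in TE6 (−0.07). KDM4C was at −0.32 in KYSE180 and 0.06 in TE6. On the scale of total reads KDM2B met both criteria in KYSE180 (0.51). KDM2A, KDM4A and KDM6B each overlapped between the groups in KYSE180. In TE6, KDM6B (227 to 246 against 279 to 316, −0.33) and KDM2A (2027 to 2291 against 2428 to 2482, −0.19) did not overlap, and KDM4A did (−0.26).

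By both criteria (limma, adjusted p under 0.05 and a change of 0.5 or more on the log2 scale), 3 of the 10 members were down and 0 up in KYSE180 siBRDT, against a background of 15.8% of all tested genes down and 14.5% up. In TE6 siBRDT, 2 were down and 0 up, against 18.1% down and 15.6% up. The median change of the members was −0.24 in KYSE180 and −0.30 in TE6, beside −0.01 and −0.04 over all genes. Since KDM1B chose the family, nothing is read from these counts.

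**Figure D1:**
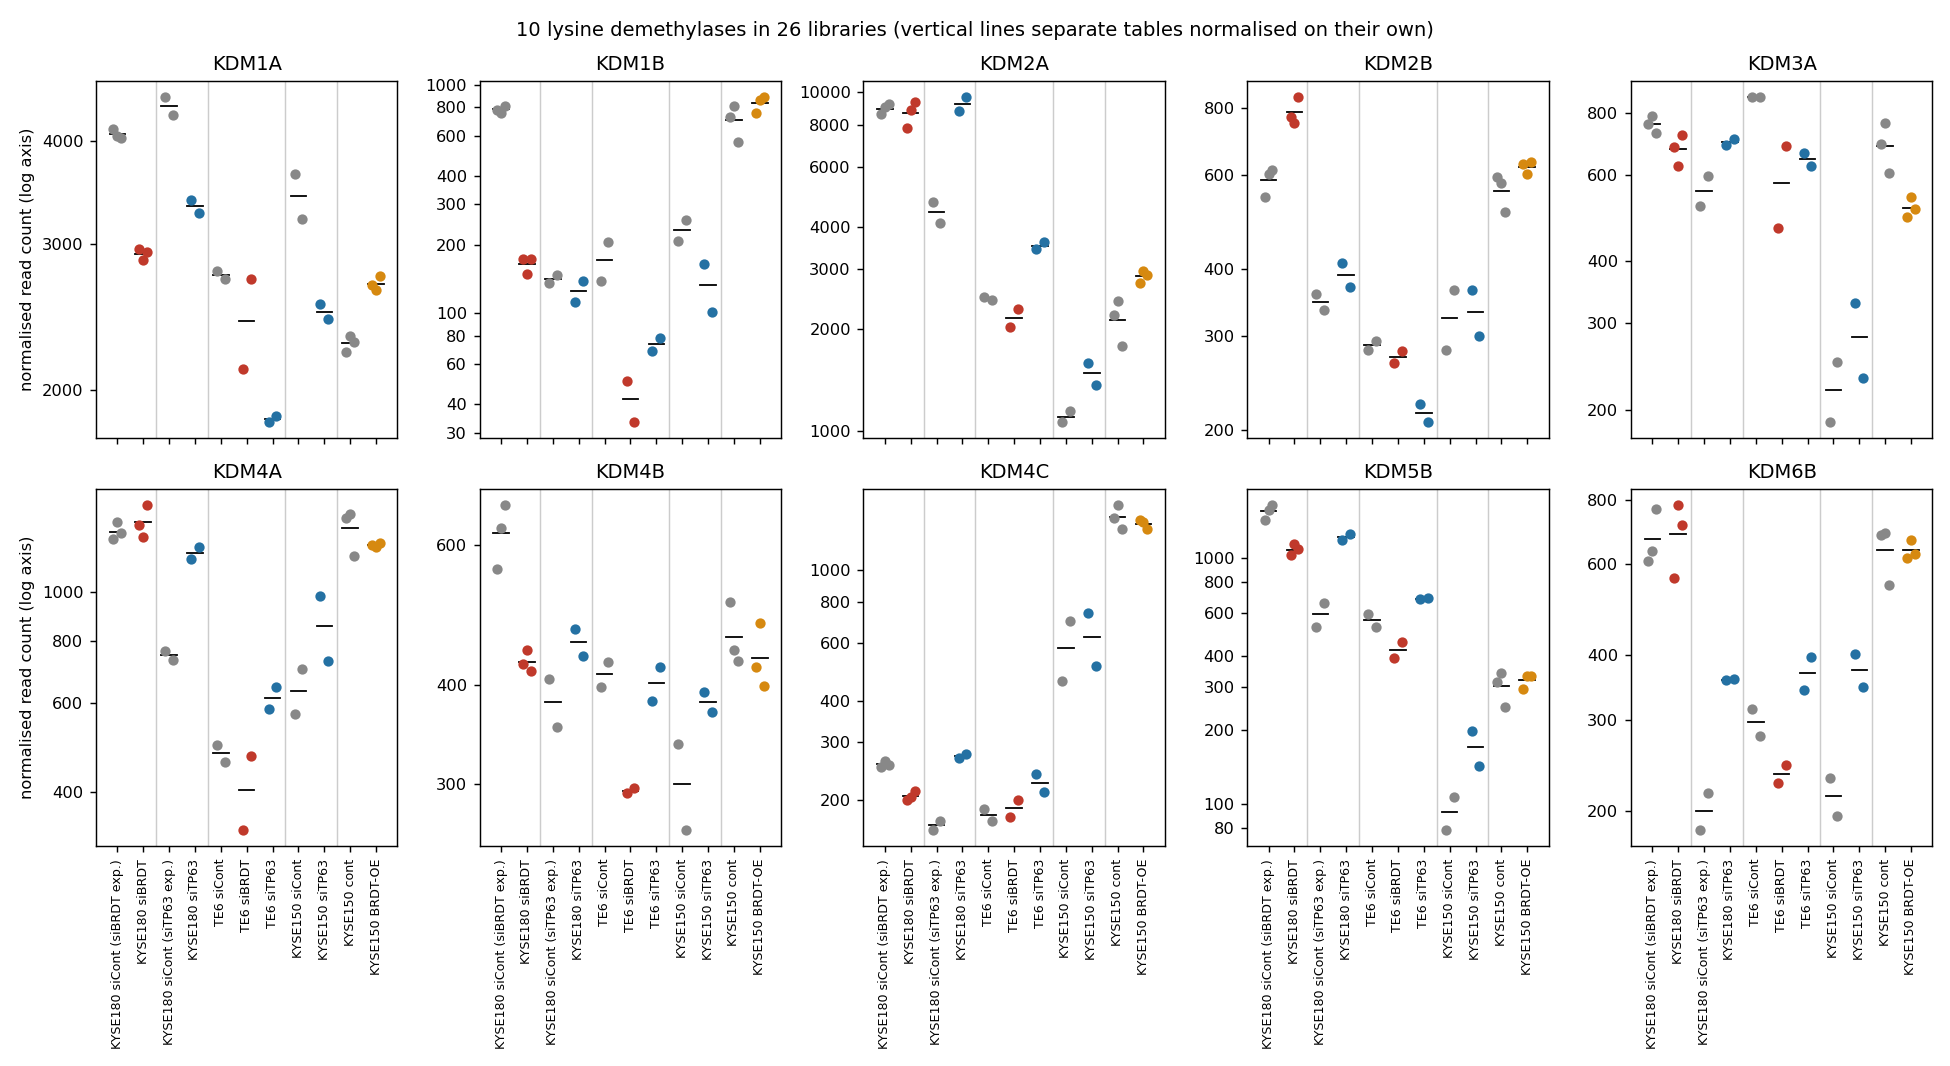
Each panel shows 1 gene, with the normalised read count on a log axis and the 11 groups on the horizontal axis. Points are libraries, black lines are group means, and grey, red, blue and orange mark control, siBRDT, siTP63 and BRDT-OE. Vertical lines separate the 5 tables, which were normalised on their own. KDM1B lies at 148 to 174 in KYSE180 siBRDT, below its controls at 755 to 809, and KDM2A lies at 8772 to 9633 in KYSE180 siTP63, above its controls at 4092 to 4730.

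The control level of KDM1B differed between experiments in the same line. In RPM of the recovered reads, which do not use the size factors, KYSE180 siCont held 70.3 ± 3.05 (SD, n = 3) in the siBRDT experiment and 8.37 ± 0.78 (SD, n = 2) in the siTP63 experiment, a ratio of 8.395. The KYSE180 siBRDT libraries, at 15.8 ± 1.45 RPM, thus stood above the siCont libraries of the other experiment. Of 12580 genes with a mean of at least 1 RPM in both sets, 99.1% had a lower ratio than KDM1B, and 42.1% of genes were more than 2-fold apart. The KYSE180 siCont libraries of the siBRDT experiment also entered the choice of KDM1B. Its place among all genes is therefore a description. In KYSE150, KDM1B held 46.8 ± 8.87 RPM in cont (n = 3) and 14.6 ± 3.71 in siCont (n = 2), a ratio of 3.20. The ratios of the 10 members between the control sets were 1.41 to 8.395 in KYSE180 and 0.71 to 3.43 in KYSE150. In KYSE150, 32.6% of genes were more than 2-fold apart. KDM1A had the lowest ratio in both lines, and KDM6B (5.11) and KDM5B (3.98) followed KDM1B in KYSE180. The control sets come from separate experiments. Each table holds 1 line and 1 experiment, so within it only treated and control libraries can be compared. What sets the control sets apart was not tested.

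**Figure D2:**
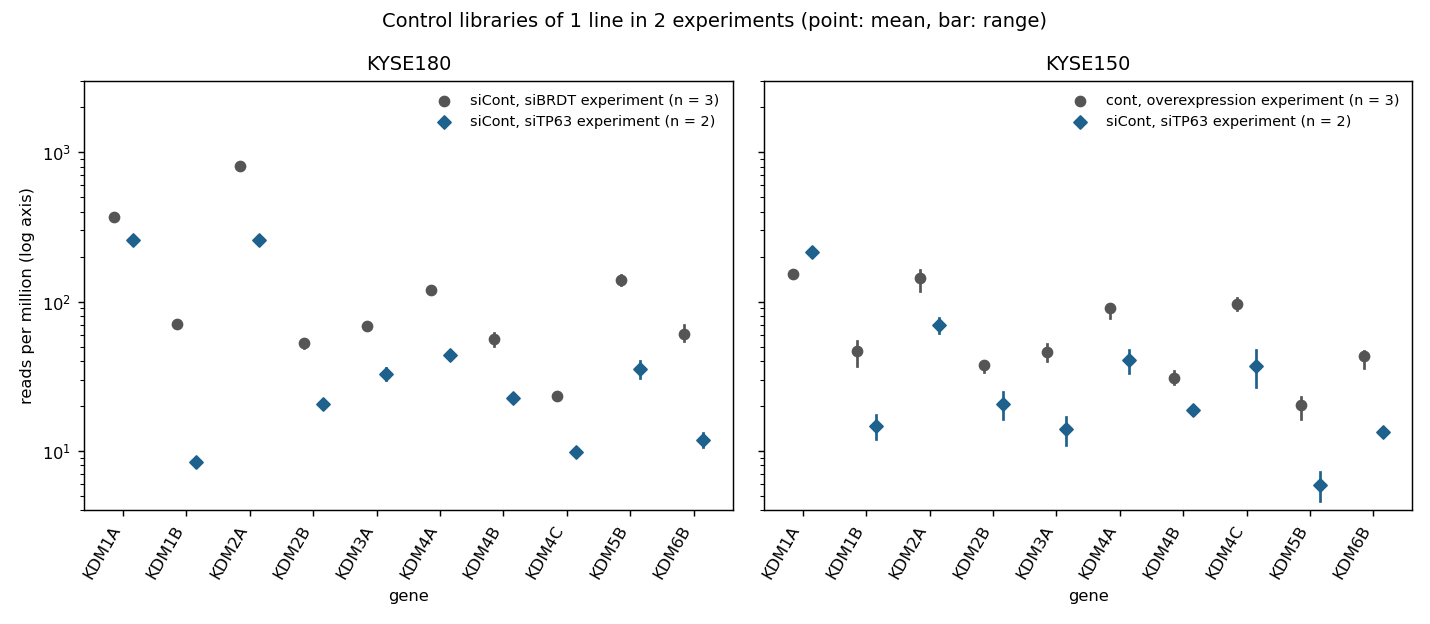
Mean RPM (log axis) of the 10 members in both control sets of KYSE180 (left) and of KYSE150 (right), with bars for the range over libraries. In KYSE180 all members were higher in the siBRDT experiment, with KDM1B at 70.3 against 8.37. In KYSE150 all but KDM1A were higher in the overexpression experiment.

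Levels of different members were compared per length, as RPM per kb of the longest coding transcript. KDM1A was the highest member in 4 of the 5 control sets, at 61.2 ± 0.70 in TE6 (n = 2) and 38.3 ± 1.01 in KYSE150 cont (n = 3). In KYSE180 controls of the siBRDT experiment KDM2A led, with 109 ± 4.51 against 92.1 ± 0.97 for KDM1A. KDM1B ranked 7 to 10 of 10 in 3 of the control sets, at 1.84 ± 0.17 in KYSE180 (siTP63 experiment), 3.35 ± 0.94 in TE6 and 3.23 ± 0.82 in KYSE150 siCont. It ranked 4 in KYSE180 controls of the siBRDT experiment (15.5 ± 0.67) and 5 in KYSE150 cont (10.3 ± 1.95). In each of these its range overlapped that of the next member below. In TE6 controls its range overlapped that of KDM4C (3.46 ± 0.19), its neighbour in the order. KDM5B was the lowest member in KYSE150, at 2.14 ± 0.36 in cont, where its range did not overlap that of KDM4B, its neighbour. KDM4C held 21.1 ± 2.02 in KYSE150 cont and 8.04 ± 3.13 in KYSE150 siCont.

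Within the KDM1 pair, KDM1B was below KDM1A in all 26 libraries. Per kb it amounted to 16.3% to 17.6% of KDM1A in KYSE180 siCont of the siBRDT experiment and to 4.53% to 5.16% under siBRDT. In TE6 the share was 4.35% and 6.61% in siCont, 2.10% and 1.08% in siBRDT, and 3.28% and 3.70% in siTP63. In KYSE150 cont it was 21.7% to 30.5% and in BRDT-OE 24.8% to 28.4%, so these groups overlapped.

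**Figure D3:**
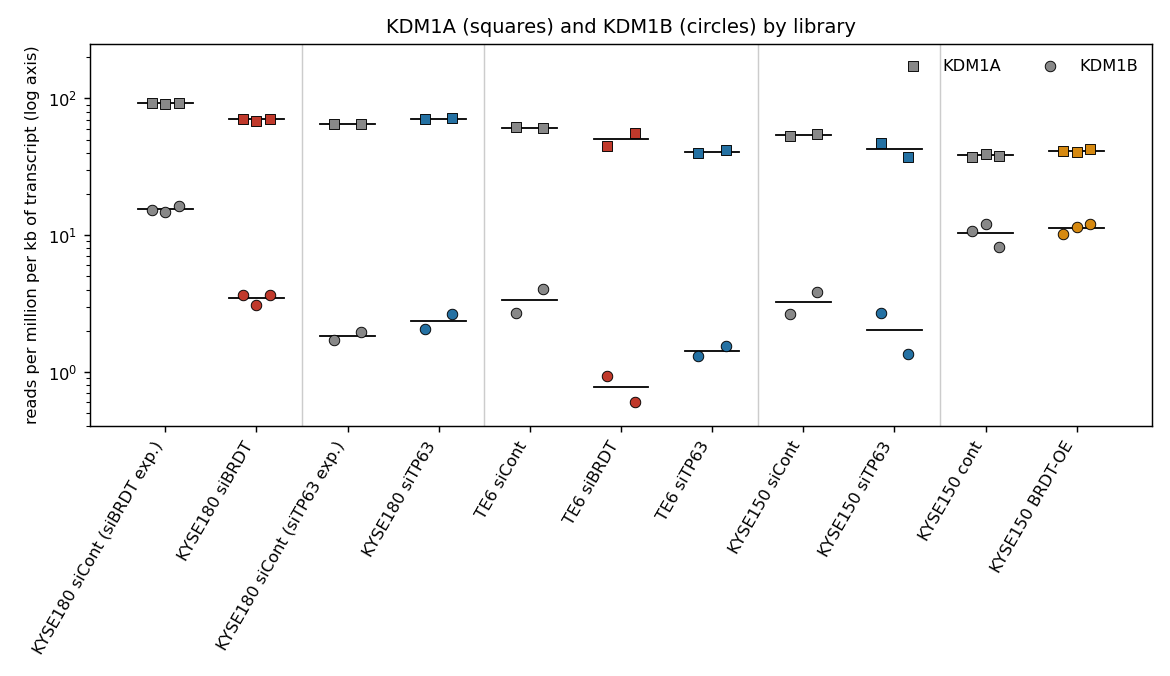
RPM per kb of transcript (log axis) for KDM1A (squares) and KDM1B (circles) in each library, by group, with black lines for group means and the colours of the plot by library. KDM1B lies below KDM1A in all 26 libraries, and lowest in TE6 siBRDT, at 0.60 and 0.94.

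The libraries of the siTP63 comparisons in KYSE180 and KYSE150 did not enter the siBRDT comparisons, but the list of members was made with earlier results of all these data known. In KYSE180, 5 of the 10 members rose and 0 fell, against 23.6% of all tested genes up and 25.7% down. The members were up by a median of 0.51, beside 0.00 over all genes. The 5 were KDM2A, KDM4A, KDM4C, KDM5B and KDM6B, from 4 Jumonji subfamilies, and each was also called by edgeR and DESeq2 on the recovered reads.

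KDM2A (chr11:67119263-67258082, plus strand) held 4730 and 4092 counts in KYSE180 siCont and 8772 and 9633 under siTP63. Both treated libraries were about 2.09-fold above control (log2 1.06, SE 0.15, limma adjusted p = 1.9e-06). KDM5B rose from 528.5 and 661 to 1183 and 1261 (1.05, SE 0.15, adjusted p = 1.4e-06). KDM6B (chr17:7834217-7854796, plus strand), the H3K27 demethylase of differentiation and inflammation, rose from 184 and 217 to 358 and 360 (0.84, SE 0.16, adjusted p = 9.5e-05). None of these 3 genes overlapped between the groups, as held for 9 of the 10 members. The share over all genes was not counted.

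Within the KDM4 subfamily, KDM4A (chr1:43650149-43705518, plus strand) rose from 734 and 763 to 1166.5 and 1231 (0.68, adjusted p = 0.00019), and KDM4C (chr9:6720863-7175648, plus strand) from 162 and 172 to 268 and 275 (0.70, adjusted p = 0.00096). KDM4B held 354 and 407 in siCont and 435 and 471 under siTP63, a change of 0.25 that did not pass (adjusted p = 0.16). Of KDM4A's exonic bases, 40.2% are shared with a same-strand protein-coding gene (ENSG00000284989) and 9.12% with the antisense KDM4A-AS1. The counting options are not given in the sources used here, so reads of KDM4A and of these genes cannot be told apart.

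Both KDM1 genes had values below control in this comparison. KDM1A went from 4517 and 4298 to 3391 and 3276, a change of −0.40 (SE 0.14, adjusted p = 0.018) that did not reach the fold limit. With the length and GC trend removed it was called, at −0.63 (limma adjusted p = 0.00028). KDM1B held 135 and 148 in siCont and 113 and 138 under siTP63, with overlap between the groups (−0.18, 95% interval −0.57 to 0.22, adjusted p = 0.44). KDM3A was at 0.33 (adjusted p = 0.051) and KDM2B at 0.17 (adjusted p = 0.36).

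The size of these changes depends on the scaling in KYSE180 siTP63. With libraries scaled by their total reads instead of the authors' size factors, an alternative chosen after seeing the data, the median of all genes moved by 0.53, 8 members were up and 0 down, and 48.5% of all genes were up. On that scale KDM1A (0.12) and KDM1B (0.34) changed sign. Relative to the median of all genes the members' median stood at 0.51 with the size factors and 0.50 on that scale.

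In TE6 siTP63, 2 members were down, KDM1A and KDM1B, and 1 was up, KDM2A, against 20.6% of all genes down and 18.3% up. KDM1A went from 2783 and 2721 counts to 1827 and 1860 (−0.58, SE 0.12, adjusted p = 0.0012), but its size fell under the limit with upper-quartile rescaling (−0.49) and after a trend on transcript length and GC content was removed (−0.43). KDM1B went from 138 and 205 to 68.3 and 78.4 (−1.19, SE 0.25), which is given as a description because the same controls entered its choice. Without siCont replicate 2 its change was −0.91 and the call was lost. KDM2A rose from 2482 and 2428 to 3438 and 3610 (0.52, SE 0.097, adjusted p = 0.00074), and without siTP63 replicate 2 it stood at 0.49, under the limit.

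The other members called up in KYSE180 lay above control in TE6 without being called. KDM4A was at 0.37 (adjusted p = 0.062), KDM4C at 0.32 (0.093), KDM5B at 0.30 (0.062) and KDM6B at 0.31 (0.081). For each of these genes both siTP63 libraries were above both controls. In this comparison 9 of the 10 members did not overlap between the groups, and the share over all genes was not counted. With 2 libraries per group this is a description only. With the length and GC trend removed KDM5B was called up, at 0.54 (limma adjusted p = 0.0022). KDM2B (−0.42, adjusted p = 0.021) and KDM3A (−0.42, adjusted p = 0.037) passed the p threshold below the fold limit, in the direction opposite to their KYSE180 values. KDM4B did not differ beyond its spread (−0.04, 95% interval −0.31 to 0.23).

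In KYSE150 siTP63, 0 of the 10 members were called by limma, edgeR or DESeq2, and limma called 0% of 12335 genes down and 0% up. At an unadjusted p under 0.05 there were 3 members and 2194 genes, or 17.8% of all genes. The 3 were KDM6B, with 232 and 196 counts in siCont and 403 and 347 under siTP63 (0.81, 95% interval 0.26 to 1.36, adjusted p = 0.16), KDM5B, with 78.7 and 107 against 199 and 144 (0.87, adjusted p = 0.23), and KDM1B, with 206 and 256 against 165 and 101 (−0.83, adjusted p = 0.26). These groups did not overlap, as held for 7 of the 10 members, and the share over all genes was not counted. The same 3 genes were called (KDM6B and KDM5B up, KDM1B down) among 3400 genes when replicates were paired crosswise, a pairing chosen after seeing that same-numbered replicates deviated oppositely (correlation −0.703). KDM1A was at −0.46 (adjusted p = 0.30) and KDM2A at 0.42 (adjusted p = 0.33).

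Across the 3 lines, 5 members had values above control in every siTP63 comparison (KDM2A, KDM4A, KDM4C, KDM5B and KDM6B), and KDM1A and KDM1B had values below control in every one, except that both lay above control in KYSE180 when scaled by total reads. KDM4C in KYSE150 was at 0.12 (limma adjusted p = 0.88). It lay below 0 without siCont replicate 1 (−0.18) or siTP63 replicate 1 (−0.15). The share of all genes that kept 1 sign in these comparisons was not counted, so the shared signs are a description. KDM2B, KDM3A and KDM4B differed in sign between lines. Tested directly as a contrast of fold changes (limma, adjusted p under 0.05), KYSE180 and TE6 differed for KDM2A, KDM2B, KDM3A, KDM5B and KDM6B. Over all genes 59.4% differed. The differences, KYSE180 minus TE6, were 0.75 for KDM3A (SE 0.16, adjusted p = 0.00050), 0.75 for KDM5B (0.0012), 0.54 for KDM2A (0.0042), 0.58 for KDM2B (0.0097) and 0.53 for KDM6B (0.026). KDM1B, with a difference of 1.01, is given without a test since TE6 controls entered its choice. With the length and GC trend removed, the contrasts of KDM2A (0.26), KDM3A (0.096) and KDM5B (0.18) no longer passed. The KDM6B difference was lost without any of 5 libraries, at 0.41 to 0.53 (limma adjusted p of 0.0569 to 0.125), namely KYSE180 siCont replicate 1, KYSE180 siTP63 replicates 1 and 2, TE6 siCont replicate 1 and TE6 siTP63 replicate 1. KYSE150 differed from KYSE180 or from TE6 for 0 members, where 1.62% and 2.48% of all genes differed.

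**Figure D4:**
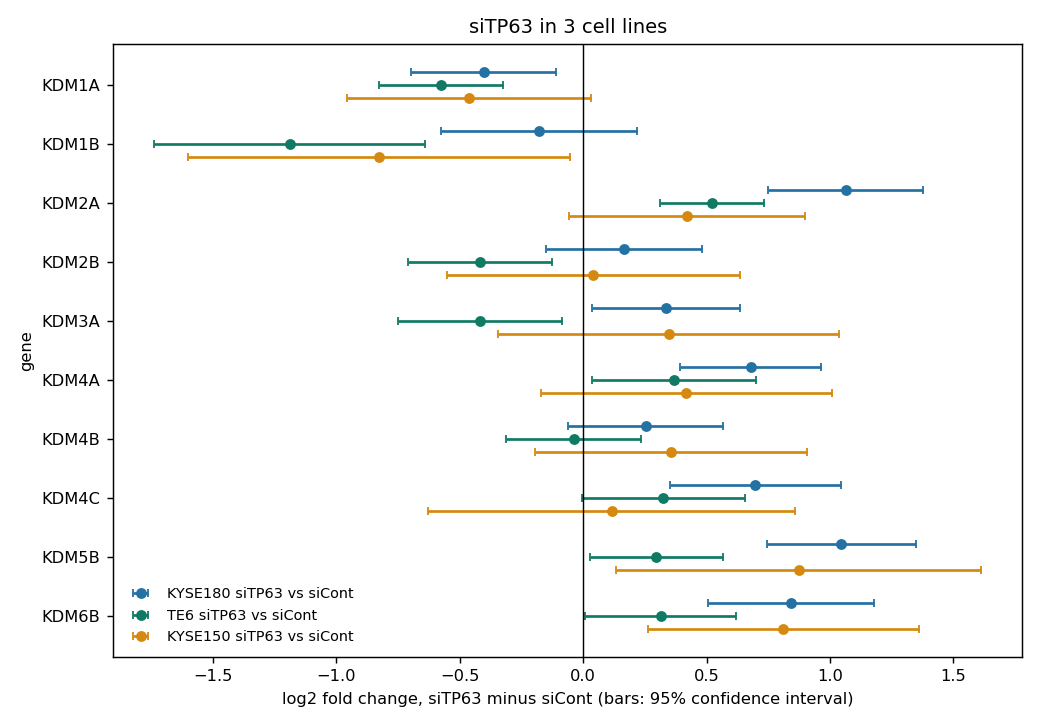
Log2 fold change of each member under siTP63 (horizontal axis, siTP63 minus siCont) in KYSE180, TE6 and KYSE150, with bars for 95% confidence intervals from limma. Points of KDM2A, KDM4A, KDM4C, KDM5B and KDM6B lie above 0 in all 3 lines, and KDM3A lies at 0.33 in KYSE180 and −0.42 in TE6.

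BRDT-OE in KYSE150 was the reverse manipulation to siBRDT, in other libraries. By limma, edgeR and DESeq2 alike, 0 members met both criteria, where 16.0% of all genes were down and 10.5% up. At an unadjusted p under 0.05 there were 3 members, beside 57.4% of all genes. KDM2A held 1786 to 2413 counts in cont and 2733 to 2961 in BRDT-OE (0.43, SE 0.10, adjusted p = 0.0052), KDM1A 2220 to 2321 and 2644 to 2742 (0.24, SE 0.063, adjusted p = 0.0088), and KDM3A 605 to 763 and 493 to 541 (−0.41, SE 0.097, adjusted p = 0.0053). These groups did not overlap, as held for 4 of the 10 members, but the changes stayed under the fold limit. The share of all genes without overlap was not counted. Without cont replicate 2 KDM2A reached 0.53, and KDM3A passed the limit with the length and GC trend removed (−0.55) and with scaling by total reads (also called, at −0.53).

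KDM1B itself held 725.5, 806 and 563 counts in cont and 756, 856 and 882 in BRDT-OE. The groups overlapped, and the change was 0.26 (95% interval −0.01 to 0.54, adjusted p = 0.10). KDM4A, KDM4B, KDM4C, KDM5B and KDM6B all overlapped between the groups, with changes of −0.10 to 0.09.

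**Figure D5:**
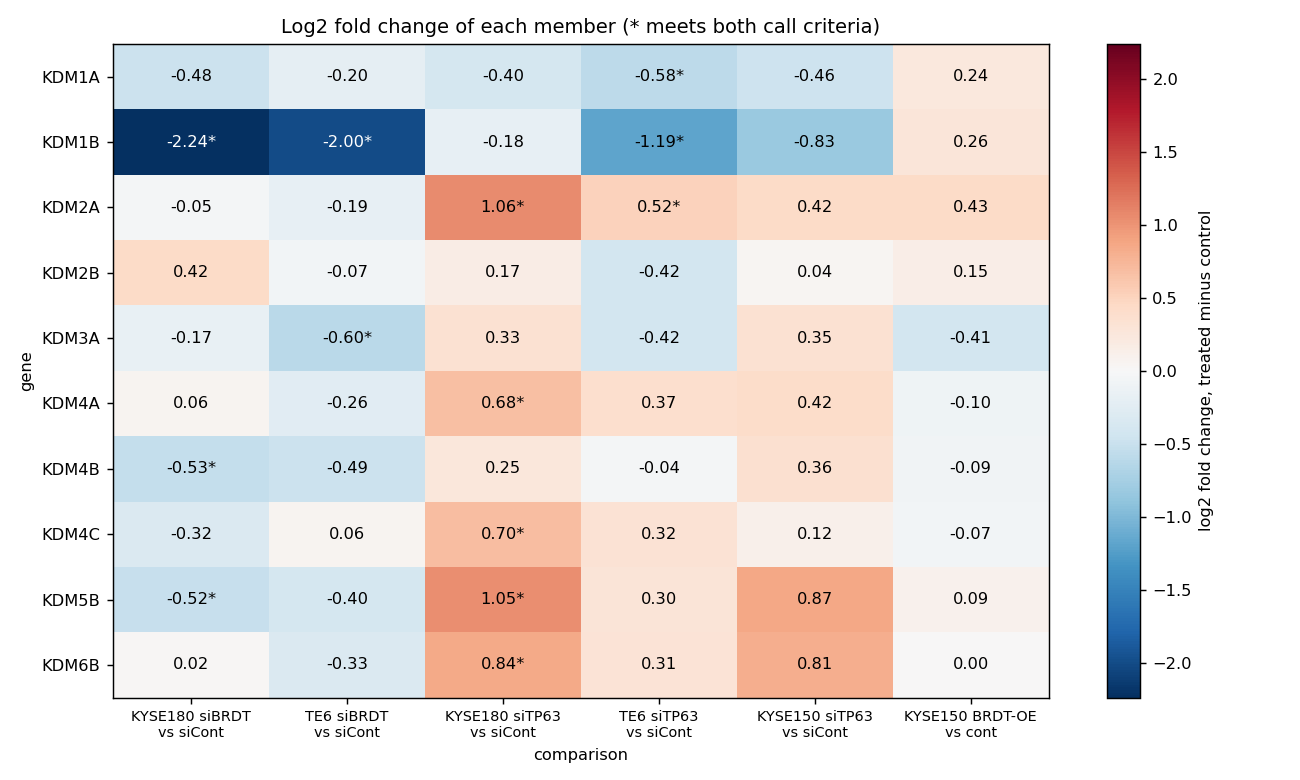
Log2 fold change, treated minus control, of the 10 members (rows) in the 6 comparisons (columns), with the value in each cell and a star where both call criteria were met. KDM1B has the lowest values, −2.24 and −2.0, in the siBRDT columns, and the KYSE180 siTP63 column has 5 stars, all above 0.

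The promoters of 3 members are shown because KDM2A and KDM5B rose most under siTP63 in KYSE180 while KDM1B did not. Each is the 250 bases before the RefSeq start on its own strand (GRCh38.p14), with matches of the paired p53-family core (CNNG, 6 bases, CNNG, the same on both strands, overlapping matches included) in capitals.
KDM1B (chr6:18155172-18155421, plus strand): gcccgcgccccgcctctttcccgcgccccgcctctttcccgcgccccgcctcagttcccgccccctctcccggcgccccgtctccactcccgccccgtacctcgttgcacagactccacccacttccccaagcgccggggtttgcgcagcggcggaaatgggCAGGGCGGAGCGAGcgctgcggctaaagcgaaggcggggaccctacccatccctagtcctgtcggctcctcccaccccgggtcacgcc
KDM2A (chr11:67119013-67119262, plus strand): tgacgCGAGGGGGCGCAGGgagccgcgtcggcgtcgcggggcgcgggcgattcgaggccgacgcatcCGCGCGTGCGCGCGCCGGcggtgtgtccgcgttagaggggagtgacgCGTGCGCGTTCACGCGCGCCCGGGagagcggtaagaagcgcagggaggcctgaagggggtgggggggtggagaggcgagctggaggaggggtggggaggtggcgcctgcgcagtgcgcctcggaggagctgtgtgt
KDM5B (chr1:202808422-202808671, minus strand): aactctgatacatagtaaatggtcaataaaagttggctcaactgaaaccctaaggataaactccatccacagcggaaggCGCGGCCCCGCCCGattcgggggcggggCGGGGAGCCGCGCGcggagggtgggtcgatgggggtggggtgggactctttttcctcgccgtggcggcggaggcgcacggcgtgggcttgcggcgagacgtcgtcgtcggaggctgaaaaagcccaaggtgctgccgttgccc
The core was found at 1 place in the KDM1B window, 6 in that of KDM2A and 2 in that of KDM5B. Of 35116 RefSeq promoter windows 68.6% held at least 1, with a median of 1. In windows not shown, members called up in KYSE180 siTP63 held 2 (KDM4A), 8 (KDM4C) and 3 and 0 (KDM6B). Members not called there held 2 (KDM1A), 1 and 3 (KDM3A), 5 (KDM4B) and 0, 2, 3 and 10 (KDM2B). A link between these counts and the siTP63 changes was not tested. GC content was 73.6%, 75.2% and 64%, with 30, 40 and 27 CpG dinucleotides, beside medians of 58% and 11 over all windows. A GC box (GGGCGG, both strands) was present at 3 places for KDM1B and for KDM5B and at 0 for KDM2A, while 42.6% of all windows held one. KDM2A has a second RefSeq start within the gene, which is not shown.

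Genes that act with or against the members were described from lists, naming at most the called gene with the largest rise and the largest fall of each list among genes with a mean of at least 100. Of all genes, 15.8% were down and 14.5% up in KYSE180 siBRDT, and 18.1% and 15.6% in TE6 siBRDT. The shares were 25.7% and 23.6% in KYSE180 siTP63, 20.6% and 18.3% in TE6 siTP63, and 16.0% and 10.5% in BRDT-OE. These stand beside the counts of every list, and no list was tested as a set. A first list held 14 other genes taken as lysine demethylases or as related to them. Of these, 0 were down and 1 up in KYSE180 siBRDT (KDM6A, the X-linked relative of KDM6B, at 0.52). In TE6 siBRDT, 6 were down and 2 up (PHF2 at −1.15 and JMJD6 at 0.60). The list's medians were 0.05 and −0.35. In KYSE180 siTP63, 4 were down and 6 up, with JMJD6 at −1.05 and PHF2 at 1.03 (adjusted p = 2.3e-06 and 8.4e-06). Scaled by total reads, 1 was down and 8 up, and for the lists below in this comparison the counts were 1 down and 9 up of the KDM1 cofactors, 0 and 5 of the Polycomb partners, 0 and 6 of the H3K4, 0 and 2 of the H3K9 and 0 and 4 of the H3K36 methyltransferases and 0 and 2 of the H3K27 subunits. On that scale 10.4% of all genes were down and 48.5% up. In TE6 siTP63, 3 were down, PHF8 furthest at −0.80, and 1 was up. In BRDT-OE, 1 was down (KDM7A, −0.63) and 3 were up (HR, a corepressor needed for hair growth, at 0.76).

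Of 14 KDM1 cofactors, 3 were down and 1 up in KYSE180 siBRDT, with PHF21A at −0.78 and ZMYM3 at 0.66, beside 15.8% and 14.5% of all genes. In TE6 siBRDT 4 were down, beside 18.1%. In KYSE180 siTP63, 3 fell and 5 rose, from RCOR2 at −1.32 (adjusted p = 3.3e-07) to GSE1 at 1.09 (adjusted p = 9.3e-07). TE6 siTP63 had 3 down, ZNF217 furthest at −1.35, and 1 up, HDAC1 at 0.70. In BRDT-OE 5 fell and 1 rose. PHF21A, the CoREST subunit that reads unmethylated H3K4, fell from 708 ± 108 to 257 ± 18 counts (SD, n = 3 each, log2 −1.45, adjusted p = 9.9e-06). GLYR1, the KDM1B cofactor, rose from 1561 ± 122 to 2223 ± 78.4 (0.51, adjusted p = 0.00033), a call lost with upper-quartile rescaling and with scaling by total reads, where 0 cofactors were up.

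Of 9 Polycomb partners of KDM2B, 1 was down in KYSE180 siBRDT (YAF2, −1.10) and 1 in TE6 siBRDT (BCOR, −0.89), beside 15.8% and 18.1% of all genes. In KYSE180 siTP63, PCGF1 fell (by 0.84) and 2 rose, RYBP most (1.19). In TE6 siTP63, 2 were down (RNF2 lowest, −0.59) and RING1 was up (1.03). In BRDT-OE limma called 0, with 5 of the 9 at an unadjusted p under 0.05, beside 57.4% of all genes.

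Among the opposing methyltransferases, those of H3K4 had 3 of 6 up in KYSE180 siBRDT (KMT2D, 0.59) and 2 of 6 in KYSE180 siTP63 (KMT2C, 0.99), and 0 in the TE6 comparisons. Of all genes 14.5% were up in KYSE180 siBRDT and 23.6% in KYSE180 siTP63. The H3K9 methyltransferase SUV39H1 was at 0.96 in KYSE180 siBRDT and 0.69 in TE6 siBRDT but at −0.82 in KYSE180 siTP63. Those of H3K36 had 4 of 5 down in TE6 siBRDT, with ASH1L at −1.03, beside 18.1% of all genes. In KYSE180 siTP63 2 of 5 were up, ASH1L at 0.95, beside 23.6%. H3K27 subunits had SUZ12 at −0.62 in TE6 siBRDT (not called with upper-quartile rescaling), −1.16 in TE6 siTP63 and 0.55 in KYSE180 siTP63, and EZH1 at −0.59 in BRDT-OE. Limma called 0 genes of these lists in KYSE150 siTP63. An unadjusted p under 0.05 was reached by 2 genes of the other demethylase list, 1 KDM1 cofactor and 1 H3K27 subunit. It was also reached by 1 H3K9 and 2 H3K36 methyltransferases, beside 17.8% of all genes.

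To describe what behaved like KDM1B, 8308 genes with a mean of at least 100 in every table were ranked by Pearson correlation with it over 26 libraries, each value taken relative to the controls of its table. The 5 highest were FBXO21 (0.971), MINPP1 (0.964), KIF5B (0.962), GALNT1 (0.96) and SLC39A6 (0.958). All 5 were lower in both siBRDT comparisons, by 1.57 to 2.04 in KYSE180 and by 1.10 to 1.97 in TE6 on the log2 scale, and in TE6 siTP63 by 0.89 to 1.43. In KYSE180 siTP63 they lay between 0.04 and 0.21 and in BRDT-OE between 0.14 and 0.34. The siBRDT libraries entered the ranking, and KDM1B changed most there. A fall of these 5 genes under siBRDT is therefore part of how they were chosen. The libraries share controls, experiment and depth, and no test was made.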

How the data were processed

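RNA was extracted with QIAzol and libraries were prepared with a TruSeq kit. Per the submitters' processing notes, STAR 2.6.0, HTSeq 0.11.2, DESeq2 1.24.0 and the genome build hg38 were used. The strand setting and annotation are not given in the sources used here. The deposited signal values are gene read counts that the authors divided by size factors, separately in each of 5 tables. Dividing by the value of 1 read gave whole numbers (within 0.0001) for 100% of values, and these recovered reads gave totals of 7582089 to 19372441 per library. A count of 0 allows up to 3 reads, or 0.1549 to 0.3957 RPM, for counting error only.

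Comparisons were made on log2(value + 1) with limma 3.58.1 (R 4.3.3), with a variance trend, for genes with a mean of at least 10, without a replicate block. Fold changes are on that scale, which understates changes of low genes. Overlap between groups was noted for listed genes only, and the share of all genes without overlap was not counted. Benjamini-Hochberg adjustment covered all genes tested, and a call needed adjusted p under 0.05 together with a log2 change of 0.5 or more. For contrasts between lines no fold limit was set, and the tables compared there were normalised separately. The 3 TE6 groups shared 1 fit. Alternatives were DESeq2 1.42.0 or edgeR 4.0.16 run on recovered reads, a pseudocount of 0.1, no filter, upper-quartile rescaling, a replicate block, removal of a length and GC trend, no fold limit and leaving out each library. Scaling by total reads and a crossed block were added after seeing the data. The limma procedure was tested on simulated data. Figures were drawn with Python 3.11.15 and matplotlib 3.10.9. Genes were named by a fixed rule: all 10 members, both targets, at most 1 rise and 1 fall per list and comparison, and the 5 genes most correlated with KDM1B. The members and lists were chosen with earlier results of these data known. The result of 1 gene that this rule named is not reported here.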

Additional observations from a re-analysis of the deposited data

Results flagged for a closer look

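The siTP63 effect differed between KYSE180 and TE6, by the limma contrast of both fold changes, for KDM2A (0.54), KDM2B (0.58), KDM3A (0.75), KDM5B (0.75) and KDM6B (0.53), each higher in KYSE180. Over all genes tested 59.4% differed in this contrast, so the number of members is not read as a result. With the length and GC trend removed KDM2A (0.26), KDM3A (0.096) and KDM5B (0.18) no longer differed. KDM2B and KDM3A had opposite signs in these lines. Under siBRDT, every KYSE180 library of KDM2B was above its controls (0.42) and both TE6 libraries were below theirs (−0.070), a difference that was not tested. The TE6 change was smaller than its SE of 0.14. The TE6 value was 0.031 with upper-quartile rescaling. No group held more than 3 libraries, so single libraries were not tested as outliers.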

How the results depend on the processing

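With both criteria, the 5 members called in KYSE180 siTP63 were called under each alternative that kept every library. The siBRDT changes of KDM1B, which chose the family, are given as a description. Over the alternatives they were −2.279 to −2.153 in KYSE180 and −2.296 to −1.71 in TE6. Without a fold limit the members called numbered 6 in KYSE180 siBRDT, 4 in TE6 siBRDT, 5 in TE6 siTP63 and 3 in BRDT-OE, beside 58.4%, 45.8%, 50.4% and 51.1% of all genes. With the length and GC trend removed they numbered 1 in TE6 siBRDT and 1 in BRDT-OE, and 3 differed between KYSE180 and TE6 (3217, 3248 and 6783 of all genes). Scaled by total reads, 8 were called up in KYSE180 siTP63 (48.5% of all genes up), 1 down in BRDT-OE (21.0% down), and 10 differed between KYSE180 and TE6, as did 8178 genes in all. In KYSE180 siBRDT that scaling gave 1 down and 1 up. Leaving out 1 library gave 1 to 3 in KYSE180 siBRDT, 1 to 4 in TE6 siBRDT, 5 in KYSE180 siTP63, 2 to 3 in TE6 siTP63, 0 in KYSE150 siTP63, 0 to 1 in BRDT-OE, 5 to 6 for KYSE180 minus TE6, 0 for KYSE180 minus KYSE150 and 0 to 1 for TE6 minus KYSE150. The siBRDT counts and the KYSE180 minus TE6 counts include KDM1B, so they are a description. The cause of these changes was not tested.

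Signs turned for several changes, of which KDM1A in KYSE180 siTP63 was the largest (−0.40 with the authors' size factors). In KYSE180 siBRDT, KDM6B was at −0.0033 (trend removed) and KDM2A at 0.040 (total reads). In TE6 siBRDT, KDM2B was at 0.031 (upper quartile) and 0.021 (trend removed), KDM1A at 0.060 (trend removed) and KDM4C at −0.036 (total reads). Under siTP63, KDM1A and KDM1B were at 0.12 and 0.34 in KYSE180 (total reads), KDM4B at 0.051 in TE6 (upper quartile), KDM2B at −0.0097 in KYSE150 (trend removed), and the KDM1A difference between KYSE180 and TE6 at −0.21 (trend removed). In BRDT-OE, KDM6B was at −0.041 (upper quartile), −0.028 (edgeR), −0.017 (DESeq2) and −0.122 (total reads), and KDM5B at −0.063 (trend removed) and −0.032 (total reads). Without single libraries the range crossed 0 for KDM6B (−0.075 to 0.16) and KDM2A (−0.105 to 0.026) in KYSE180 siBRDT, KDM4C in TE6 siBRDT (−0.021 to 0.151), KDM4B in TE6 siTP63 (−0.11 to 0.032), KDM2B (−0.146 to 0.229) and KDM4C (−0.185 to 0.416) in KYSE150 siTP63, and KDM5B (−0.040 to 0.185) and KDM6B (−0.107 to 0.059) in BRDT-OE.

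Same-numbered replicates were not tied by the labels, and their deviations correlated at −0.703 to 0.178. With the replicate block the calls over all genes were 4175, 4442, 6799, 5177, 137 and 3433 in KYSE180 siBRDT, TE6 siBRDT, KYSE180 siTP63, TE6 siTP63, KYSE150 siTP63 and BRDT-OE, against 4115, 4493, 6869, 5184, 0 and 3386 without it, and line contrasts with KYSE150 fell from 193 and 288 genes to 0. In KYSE150 siTP63 the correlation of −0.703 led to a crossed block, chosen after seeing the data, with 3 members and 3400 genes called. DESeq2 called 462 genes there and the fit with the trend removed 726. The share of calls that were up moved from 46.2% to 58.6% (upper quartile) or 33.5% (total reads) in TE6 siBRDT, and with total reads from 47.9% to 59.7% in KYSE180 siBRDT, from 47.9% to 82.4% in KYSE180 siTP63 and from 39.7% to 22.8% in BRDT-OE.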
